A study of Mus musculus with 8 samples.

Results

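The 10 genes described here are Egr1, Egr2, Egr3, Egr4, Atf3, Klf4, Nr4a1, Srf, Ier2 and Ier3, a listed set of immediate-early genes and 1 of their main regulators, among 21938 protein-coding genes annotated on the assembled mouse chromosomes. Binding of ASH2L was mapped by ChIP-seq in 8 libraries of iMEF cells, immortalised mouse embryo fibroblasts of the genotype Ash2l fl/fl with an inducible Cre-ER. In all groups exon 4 of the endogenous Ash2l alleles had been deleted, and the cells lived on a lentiviral FKBP12F36V-HA2 fusion of human ASH2L, so the mapped protein is the tagged human one and the study's main line, NG3, is a single clone. The 4 groups were ASH2L ChIP and input, each without dTAG and with dTAG for 1 h, a PROTAC that leads the FKBP fusion to degradation, with 2 libraries in each. The labels give the antibody target as Ash2l, and the study's methods name an antibody to the HA tag. The data are 1 list of 6444 ASH2L sites found across all samples, 6428 of them on the assembled chromosomes, with positions and no value for any sample. A site therefore has no height, no replicate error and no change after dTAG here, a missing site can mean absent binding or binding under the authors' calling threshold, and read depth cannot be seen.

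Immediate-early genes are switched on within minutes of serum, growth factors or stress, without new protein synthesis. Serum response factor (SRF) and its partners, the ternary complex factors of the ETS family and the myocardin-related factors, act on many of them through CArG boxes, and CREB acts on others through cyclic AMP response elements. Many of their promoters carry CpG islands, the regions at which ASH2L, as a core subunit of the KMT2 methyltransferase complexes, takes part in trimethylation of lysine 4 of histone H3. The comparisons below ask at which of these genes the list has an ASH2L site, where the nearest sites lie and what the promoters have in common.

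None of the 10 genes had an ASH2L site centred within 1 kb of any of its annotated transcription start sites (TSSs), 28 in all. Over all protein-coding genes, 3078 of 21938 had one, which is 14.0%. Nor had any of the 10 a site within 3 kb, against a background of 15.4%. A CpG island lay within 1 kb of a start of each of the 10, and among the 16099 protein-coding genes with an island the share with a site was 19.0%. A count of 0 of 10 allows a share of up to 30.0% (3 counts of 10; the 95% Wilson interval ends at 27.8%), for counting error only, and these backgrounds lie below both limits. The 0 of 10 is given as a description of these genes, and a difference from other genes was not tested.

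The promoters of the genes are shown first, because this is where a site was not listed. RefSeq promoter windows, from 250 bases before a start to 50 after it in GRCm38.p6, were matched for 7 of the 10 genes with 11 windows, and gene positions below are those of GENCODE in the same build. Egr1, Egr3 and Ier2 had no entry. Windows of these 7 genes held 54 to 74.3% G or C and 10 to 40 CpGs, against medians of 52.7% and 7 CpGs over all 32851 windows. The 32851 windows include genes without a CpG island, whereas each of these 7 genes has one. A median over island genes alone is not given here. Matches to short motifs were searched on both strands, and each match is a description of the letters, not a measured binding site.

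The CArG box, the motif of SRF, was searched as CCWWWWWWGG, where W is A or T. Boxes with a mismatch were not searched. An exact match was present in 2 of the 7 genes, Egr2 and Srf itself. It was in 1.75% of the 16522 protein-coding genes with a window and in 1.63% of all windows. Egr2, on chromosome 10 (67535475 to 67542188), encodes a zinc finger factor that is needed for hindbrain patterning and for myelination by Schwann cells, and it had a CArG box in 4 of its 5 windows. The box of the second window and the box shared by the third to the fifth are at different positions. The first run lies upstream of the RefSeq start at 67537566 (chr10:67537416-67537565, plus strand, in an intron of longer Egr2 transcripts) and is printed for its CArG box and its SP/KLF match, CCCCGCCCC, both in capitals. The second is a 30-base stretch around the other box (chr10:67537787-67537816, plus strand), 82 to 53 bases before the start at 67537869. This second stretch overlaps a RefSeq exon and no GENCODE exon.
Egr2, the second start: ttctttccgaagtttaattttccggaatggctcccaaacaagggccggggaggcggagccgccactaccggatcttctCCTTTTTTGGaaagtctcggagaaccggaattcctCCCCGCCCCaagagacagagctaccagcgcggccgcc
Egr2, the third start: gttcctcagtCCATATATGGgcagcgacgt

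Srf, on chromosome 17 (46548329 to 46556175), encodes the MADS box factor that binds CArG boxes. Its window held 2 of them within 30 bases, from 82 to 53 bases before the RefSeq start at 46556162 (chr17:46556215-46556244, minus strand). Only this stretch is printed, with both boxes in capitals. It overlaps a RefSeq exon and no GENCODE exon. With windows from 1000 bases before to 200 after each start, or at each of the 21 GENCODE TSSs of the 7 genes, the genes with a CArG box were again Egr2 and Srf.
Srf: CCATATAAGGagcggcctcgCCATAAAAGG

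EGR factors bind GC-rich 9-base sites, searched here as GCGGGGGCG or GCGTGGGCG. A match was present in 3 of the 7 genes, Srf, Klf4 and Nr4a1, in 5.5% of protein-coding genes and in 3.47% of all windows. In all 3 genes it overlapped a match to the SP/KLF motif CCCCGCCCC, which 5 of the 7 genes held (these 3, Egr2 and Atf3) and which occurred in 17.9% of protein-coding genes and 11.4% of all windows. Klf4, on chromosome 4 (55527143 to 55532466), encodes a zinc finger factor of epithelial differentiation that is also used to reprogram fibroblasts to pluripotency. Its run (chr4:55532476-55532709, minus strand) has the EGR match and 3 SP/KLF matches in capitals, with the EGR match and the second SP/KLF match merged into 1 stretch. Nr4a1, on chromosome 15 (101254269 to 101274795), encodes the orphan nuclear receptor NUR77. Its run (chr15:101266596-101266845, plus strand) also has in capitals the 5-base core of the cyclic AMP response element, TGACG, which here reads CGTCA on the strand shown.
Klf4: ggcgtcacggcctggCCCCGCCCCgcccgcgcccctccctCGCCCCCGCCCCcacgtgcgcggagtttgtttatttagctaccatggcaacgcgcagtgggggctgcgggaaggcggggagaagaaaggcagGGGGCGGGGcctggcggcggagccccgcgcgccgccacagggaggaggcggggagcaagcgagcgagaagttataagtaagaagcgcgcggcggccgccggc
Nr4a1: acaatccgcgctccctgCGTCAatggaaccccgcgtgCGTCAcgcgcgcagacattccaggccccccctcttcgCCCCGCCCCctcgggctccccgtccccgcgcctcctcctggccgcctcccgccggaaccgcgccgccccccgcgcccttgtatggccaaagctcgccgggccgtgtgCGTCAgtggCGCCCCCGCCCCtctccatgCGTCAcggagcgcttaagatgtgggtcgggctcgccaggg

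The core TGACG was the most frequent of the response elements in these promoters. It was found in 6 of the 7 genes, all but Ier3, in 26.9% of protein-coding genes and in 20.8% of all windows. Nr4a1 held 4 copies, and Egr4, on chromosome 6 (85511121 to 85513589), an EGR factor known from neurons and male germ cells, held 2 copies, shown in capitals in the 200 bases before its RefSeq start (chr6:85513590-85513789, minus strand). The full palindrome TGACGTCA was in none of the 7 genes, in 2.64% of protein-coding genes and in 1.79% of all windows. The ETS match CCGGAAGT and the AP-1 match (TGAGTCA or TGACTCA) were likewise in none of the 7, against 5.94 and 5.4% of protein-coding genes and 3.89 and 5.2% of all windows. CCAAT was in 4 of the 7 (Egr2, Atf3, Srf and Ier3), in 42.1% of protein-coding genes and in 37.4% of all windows. No match says only that these letters are not in these windows.
Egr4: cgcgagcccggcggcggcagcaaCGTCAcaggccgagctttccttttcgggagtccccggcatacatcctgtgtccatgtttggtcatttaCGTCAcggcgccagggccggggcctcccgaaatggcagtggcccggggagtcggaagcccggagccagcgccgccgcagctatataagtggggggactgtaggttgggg

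**Figure D1:**
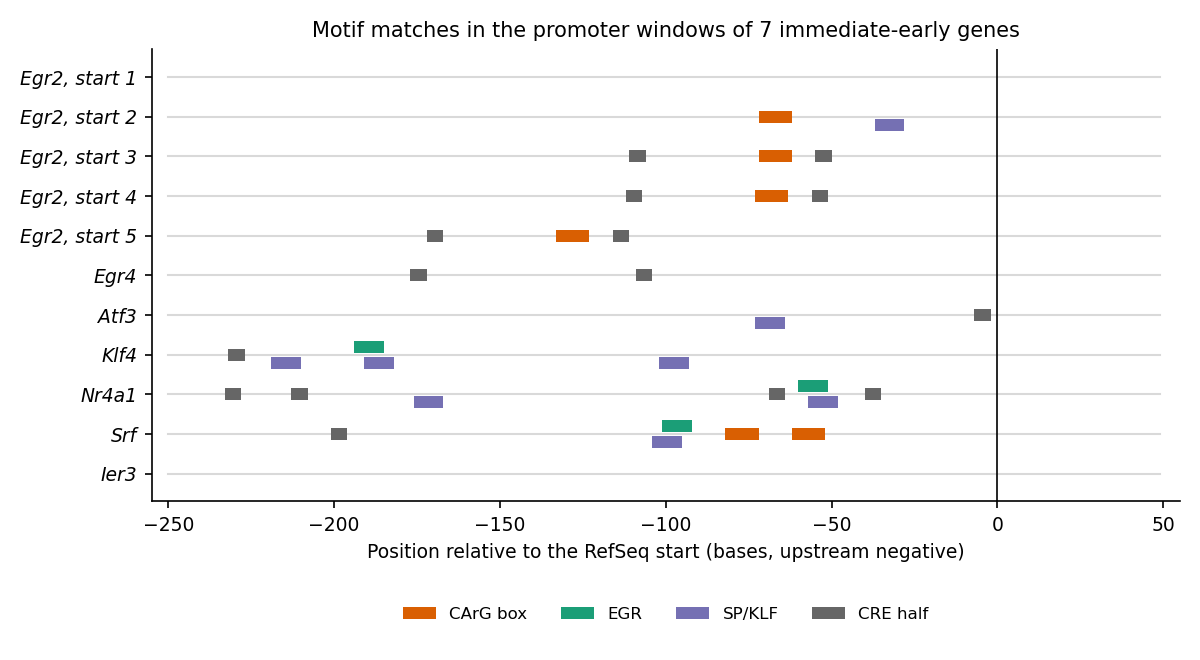
Positions of motif matches in 11 RefSeq promoter windows of 7 immediate-early genes; the x axis gives bases from the RefSeq start, each grey line is 1 window and each bar is 1 match on either strand. CArG boxes lie between 133 and 53 bases before the starts of Egr2 and Srf, the EGR matches of Klf4, Nr4a1 and Srf overlap SP/KLF matches, and Ier3 has none of these 4 motifs.

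The same motifs were counted at protein-coding genes with and without an ASH2L site within 1 kb, over 2398 and 14124 genes matched to a window. The CArG box was in 1.25% of genes with a site and in 1.83% of those without. The EGR match was in 7.42 and 5.18%. The ETS match was in 12.7 and 4.79%, the core TGACG in 40.3 and 24.6%, and the SP/KLF match in 20.9 and 17.4%. The palindrome TGACGTCA was in 4.21 and 2.37%, the AP-1 match in 3.71 and 5.69% and CCAAT in 38.2 and 42.7%. Over all protein-coding genes, 3059 of the 3078 with a site had a CpG island, against 13040 of the 18860 without a site. The motif shares were not matched for islands. Of the 48 other listed immediate-early genes and regulators with a window, 8.33% held the CArG box, 22.9% the EGR match, 25% the SP/KLF match and 58.3% the core TGACG. In the same 48 genes the palindrome was in 10.4%, the AP-1 match in 6.25%, CCAAT in 47.9% and the ETS match in 2.08%. The counts in the 7 genes are too small to be set against these shares.

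Around the genes, 5 of the 10 had a site within 100 kb of a TSS (Egr1, Egr3, Nr4a1, Ier2 and Ier3), against 51.6% of all protein-coding genes, so the share was near the background. Egr2, Egr4, Atf3, Klf4 and Srf had none. The 13 sites around the 5 genes were 200 to 729 bp wide with a median of 344 bp, against a median of 268 bp over all sites. Of the 13, 9 lay within 1 kb of the TSS of another gene, and the same 9 overlapped a CpG island. The other 4 overlapped no island. None lay in the body of 1 of the 10 genes.

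**Figure D2:**
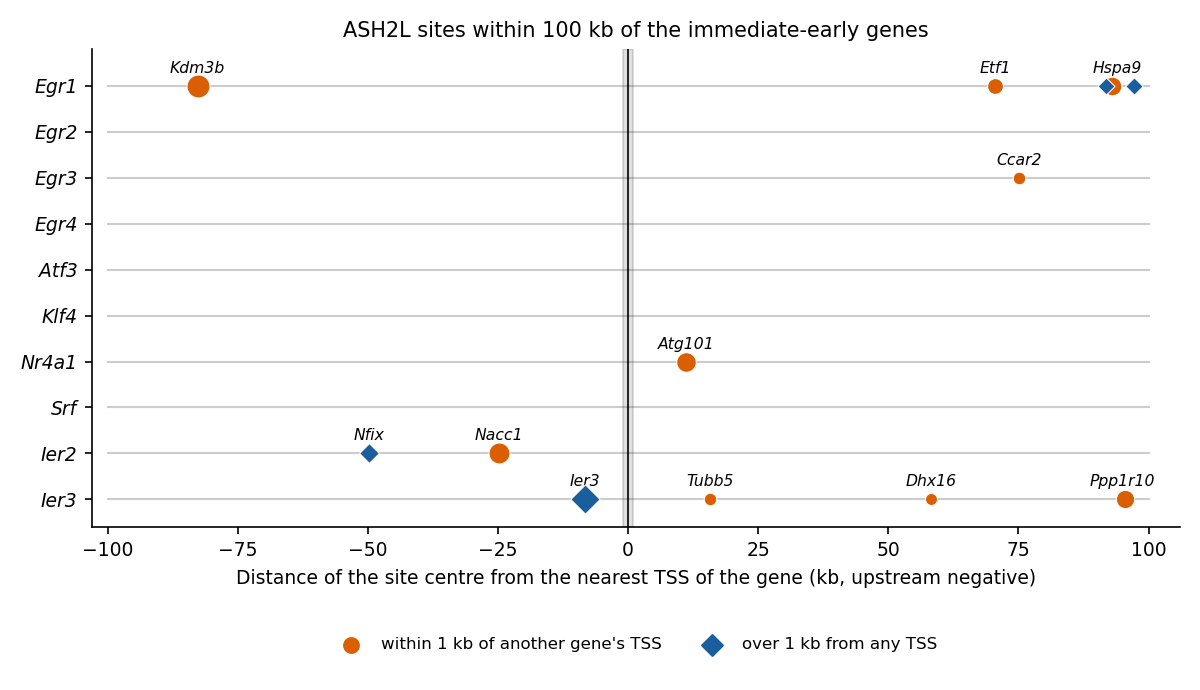
ASH2L sites within 100 kb of each of the 10 genes; the x axis gives the distance of the site centre from the nearest TSS of the gene in kb, the area of a symbol rises with the width of the site, and the name above is the gene with the nearest TSS. The grey band of 1 kb on each side of the TSS holds no site, and 5 of the 10 lines are empty.

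Ier3, on chromosome 17 (35821684 to 35822923), encodes a small stress-induced protein that modulates apoptosis and ERK signalling, and it was the gene nearest to a site. The site of 595 bp at chr17:35813030-35813624 was centred 8357 bp upstream of its single TSS. It was intergenic, the nearest TSS of any gene was that of Ier3, and it was wider than or as wide as 92.5% of all sites. It is the only 1 of the 13 sites whose nearest gene is 1 of the 10. The site had 53.3% G or C, 11 CpGs and no CpG island. Its central 300 bases are printed because this is the single distal site assigned to 1 of the 10 genes by distance (chr17:35813177-35813476, plus strand). They hold 1 AP-1 match, TGAGTCA, in capitals. Such a match was in the central 300 bases of 14.4% of the 3051 sites farther than 1 kb from any TSS and of 3.38% of the 3377 sites within 1 kb of a TSS.
Site upstream of Ier3: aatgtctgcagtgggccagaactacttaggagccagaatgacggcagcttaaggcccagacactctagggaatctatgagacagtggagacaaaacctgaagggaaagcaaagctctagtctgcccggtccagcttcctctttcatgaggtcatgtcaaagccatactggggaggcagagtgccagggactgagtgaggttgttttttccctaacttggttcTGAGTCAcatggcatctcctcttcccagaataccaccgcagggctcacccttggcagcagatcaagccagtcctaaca

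Ier3 also had 3 sites at the promoters of downstream neighbours. A site of 216 bp was centred 297 bp upstream of the TSS of Tubb5, a beta-tubulin gene, 15.7 kb from Ier3. Another of 200 bp was 63 bp downstream of the TSS of Dhx16, an RNA helicase gene, and 58.2 kb away. The last, of 460 bp, was 64 bp upstream of the TSS of Ppp1r10, a regulatory subunit of protein phosphatase 1, and 95.4 kb away. The gene with the nearest TSS to Ier3, Flot1 at 1.55 kb, had no site within 1 kb of its own TSSs.

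Nr4a1 came next. The site of 530 bp at chr15:101283806-101284335 was 11.2 kb downstream of the most downstream of its 3 TSSs and 202 bp upstream of the TSS of Atg101, an autophagy gene. From the TSS at 101266846, the start shown above, the same site was 17224 bp away, and from the most upstream TSS 29801 bp.

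Ier2, on chromosome 8 (84661331 to 84662852), encodes a nuclear protein of the rapid serum response. It had a site of 609 bp (chr8:84687390-84687998) at the promoter of Nacc1, a BTB domain factor gene, 24.8 kb upstream of its single TSS. A second site, of 270 bp (chr8:84712466-84712735), lay 49.7 kb upstream in an intron of Nfix, a nuclear factor I gene, 1468 bp from a TSS of Nfix.

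Egr1, on chromosome 18 (34859823 to 34864984), encodes the zinc finger factor most often used as the marker of the immediate-early response, and it had 5 sites within 100 kb, the largest number of the 10. The widest, 729 bp, was at the promoter of Kdm3b, an H3K9 demethylase gene, 82.7 kb upstream and 23 bp from the TSS of Kdm3b. The nearest, 344 bp wide, was 70.6 kb downstream and 245 bp from the TSS of Etf1, a translation release factor gene. The 3 others had Hspa9, a mitochondrial chaperone gene, as nearest gene, at 164, 1242 and 4051 bp from its TSS, and were 480, 200 and 209 bp wide. Reep2, the coding gene with the nearest TSS to Egr1, 19.2 kb away, had no site within 1 kb.

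Egr3, on chromosome 14 (70077203 to 70082614), a factor of muscle spindles and lymphocytes, had 1 site of 221 bp (chr14:70153772-70153992). It was 75.1 kb downstream of Egr3 and 71 bp upstream of the TSS of Ccar2.

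For the other 5 genes the nearest site was beyond 100 kb. For Atf3, on chromosome 1 (191170296 to 191218039), a stress-induced bZIP factor that also belongs to the AP-1 related factors, it was 404 bp wide, 120 kb downstream and 20 bp from the TSS of Nsl1. For Klf4 it was 200 bp wide, the smallest width in the list, 200 kb upstream, and over 100 kb from any TSS. For Srf it was 348 bp wide, 226 kb upstream, at the promoter of Rpl7l1. For Egr2 it was 208 bp wide, 251 kb downstream. For Egr4 it was 286 bp wide, 620 kb downstream, at a TSS of Exoc6b, and 89.1% of protein-coding genes had a nearer site or one as near.

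In the order of distance, the genes ran from Ier3 through Nr4a1, Ier2, Egr1, Egr3, Atf3, Klf4, Srf and Egr2 to Egr4. The median distance of the 10 was 97.6 kb, against 93.8 kb for all protein-coding genes and 63.9 kb for those with a CpG island. The percentages of protein-coding genes with a site as near or nearer were spread between 18.4 for Ier3 and 89.1 for Egr4. The list gives no error for a position, so neighbours in this order could not be compared with a spread.

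**Figure D3:**
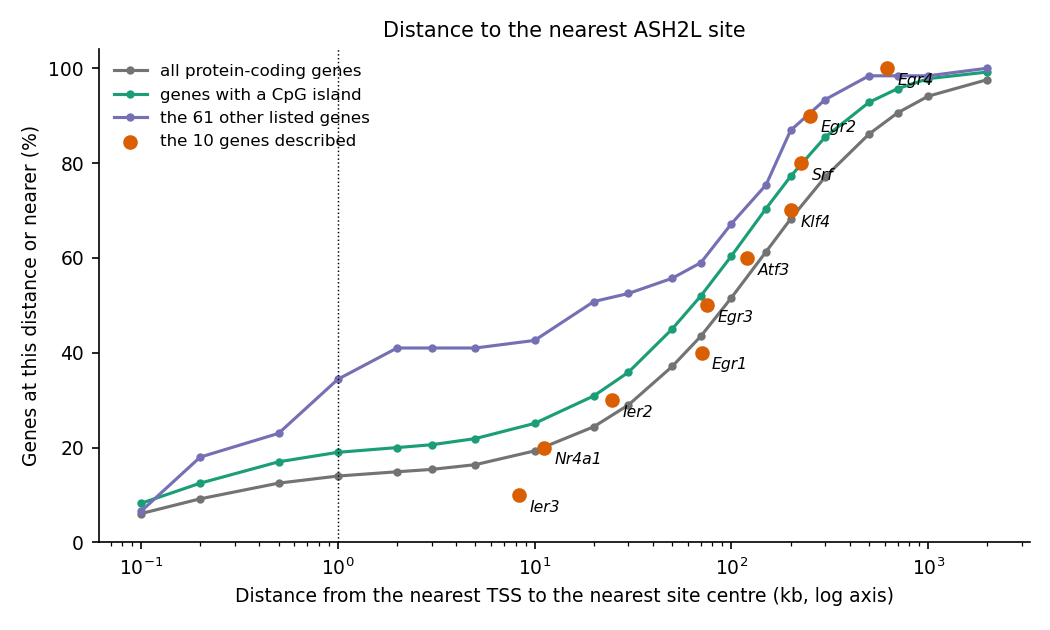
Distance to the nearest ASH2L site; the x axis is the distance from a gene's nearest TSS to the site centre in kb on a log axis and the y axis the percentage of genes at that distance or nearer, with lines for all protein-coding genes, genes with a CpG island and the 61 other listed genes, and 1 point for each of the 10 genes. The 10 points start at 8.36 kb, beyond the 1 kb marked by the dotted line, and end at 620 kb.

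The regions around the genes were not empty of promoters. Within 100 kb of a TSS of the 10 genes lay TSSs of 45 other protein-coding genes, 43 of them with a CpG island, and 11 (24.4%) had a site within 1 kb, against 14.0% of all protein-coding genes and 19.0% of those with an island. The numbers at single genes are too small to be read against these shares. Among the 11 genes, Mrps18b and Ppp1r10 were counted for the same site, and Nfix for a site beyond 100 kb from Ier2. For Egr1, 3 of 4 such neighbours had a site. For Srf it was 0 of 7 and for Egr4 0 of 6, and Klf4 had no protein-coding neighbour within 100 kb. At Egr2 the only neighbour, Ado, and at Atf3 both neighbours, Fam71a and Batf3, had no site within 1 kb.

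The CpG islands of 8 of the 10 genes were longer than 1356 bp, and those of Nr4a1 and Ier3 were near the median of island genes. The longest island within 1 kb of a TSS ranged from 887 bp at Nr4a1 to 3997 bp at Egr3, with a median of 1912 bp. The median was 925 bp over all protein-coding genes with an island, 1130.5 bp over genes with a site and 1448 bp over the 61 other listed genes described below. Atf3 had an island of 3781 bp, Egr4 2788 bp, Egr1 2461 bp, Ier2 2055 bp, Klf4 1769 bp, Srf 1706 bp, Egr2 1378 bp and Ier3 971 bp. Their G or C content was 57.6 to 68.9% and their ratio of observed to expected CpGs 0.673 to 0.856. Only 0.0311% of island genes had an island as long as or longer than that of Egr3, and 0.0745% one as long as or longer than that of Atf3.

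The share of genes with an ASH2L site rose with the length of the island. In 5 classes of island genes of about equal size, ordered by length, it was 3.38, 14.2, 21.5, 26.2 and 29.8%. Of the 10 genes, 8 were in the class with the longest islands and 2, Ier3 and Nr4a1, in the middle class. Among all 8616 genes with an island at least as long as that of Nr4a1, 26.7% had a site. Weighted by the classes of the 10 genes, the share over all island genes was 28.1%, which lies between the Wilson limit of 27.8% and the limit of 30.0% for 0 of 10.

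**Figure D4:**
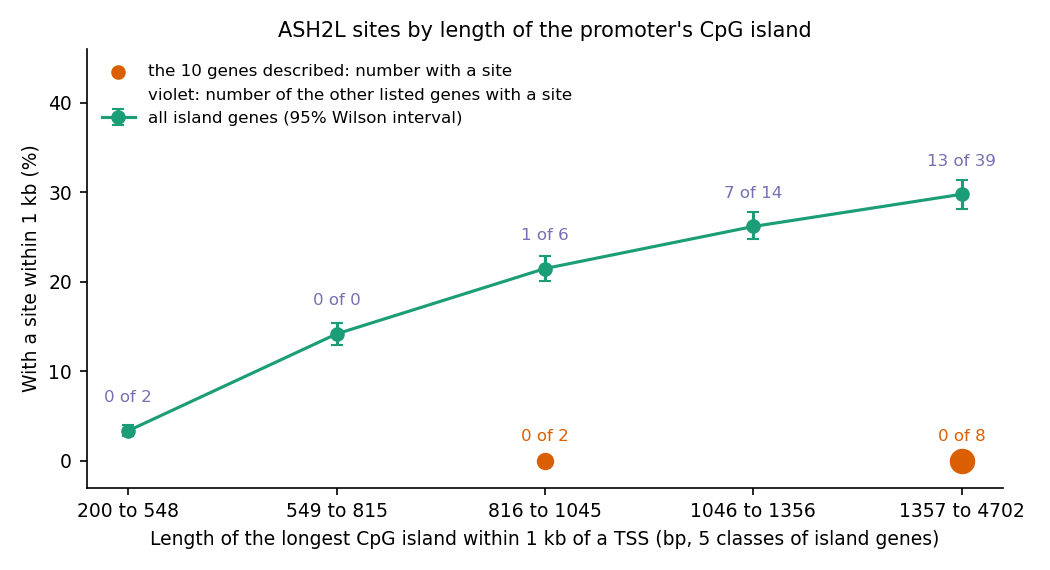
Share of protein-coding genes with an ASH2L site within 1 kb of a TSS, in 5 classes by the length in bp of the longest CpG island near a TSS; green points are all island genes with 95% Wilson intervals, orange points are the 10 genes with their number beside them, and violet numbers count the 61 other listed genes. The green share rises from 3.38 to 29.8%, and the orange points are at 0 of 2 and 0 of 8.

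In other annotated features, the median length of the 10 genes was 5.37 kb, with Atf3 (47744 bp) and Nr4a1 (20527 bp) the longest, against 17.4 kb over all protein-coding genes and 29.6 kb over genes with a site. The 61 other listed genes of the response, described below, had a median of 6.3 kb. The median number of TSSs was 3 in the 10 genes, 3 over all protein-coding genes and 5 over genes with a site. None of the 10 had an antisense TSS within 1 kb upstream of a TSS, as in a divergent promoter. Such a TSS was annotated for 18.3% of all protein-coding genes and for 36.7% of those with an ASH2L site. Among the 61 other listed genes it was 11.5%. Over the 16099 protein-coding genes with an island, the medians were 23.4 kb and 4 TSSs, and 23.8% had such a TSS. For the island genes without a site the medians were 21.6 kb and 4 TSSs, and the share was 20.8%. More TSSs also give a gene more windows in which a site can fall: with only the most upstream TSS of each gene, 2696 protein-coding genes in place of 3078 had a site within 1 kb, and 0 of the 10.

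ASH2L sites were listed at other genes of the same response. Of 61 further genes in 3 lists, all with a CpG island, 21 had a site within 1 kb, which is 34.4% (95% Wilson interval 23.7 to 47, counting error only). The share was 19.0% over all island genes and 27.3% when these were weighted by the island length classes of the 61 genes, and the latter lies inside the interval. The difference between these genes and the 10 was not tested, and with a window of 500 bp the count was 14 of 61, against 12.5% of all protein-coding genes and 17% of those with an island at that distance. The single calls also depended on the choices made: Ccn1, Fosl1, Id1, Jun, Klf5, Nab1 and Sgk1 had no site within 500 bp, Dusp1, Klf5, Nab2 and Nr4a2 had none without sites of 200 bp, and Errfi1, Fosl1, Klf5, Nr4a2 and Sgk1 had none within 1 kb of their most upstream TSS. These lists were set up with results of the same data known, so their share is a description. For these genes the median distance to the nearest site was 17.8 kb. Of the 21 sites, 17 were centred downstream of the TSS, 3 upstream and 1, at Tob1, on it, and their widths were 200 to 704 bp with a median of 273 bp.

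Of the 9 upstream regulators and cofactors, 3 had a site. Creb1, the gene for CREB, had a site of 426 bp 167 bp downstream of a TSS. Nab1 and Nab2, which encode the corepressors that bind EGR factors, had sites of 257 and 200 bp, 587 and 483 bp downstream. The ternary complex factor genes Elk1, Elk3 and Elk4 had none, with nearest sites at 337, 124 and 97 kb, nor had the myocardin-related genes Mrtfa and Mrtfb or Crem. The Nab2 site also lies in the annotated Nemp1.

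Of 22 other immediate-early transcription factors, 7 had a site. The widest was at Jun, an AP-1 subunit gene, 613 bp wide and 940 bp downstream of its TSS. Klf6 had a site of 396 bp at 120 bp downstream, Id3, a dominant-negative helix-loop-helix gene, one of 343 bp centred 9 bp upstream, and Fosl1 one of 225 bp at 805 bp downstream. Id1, Klf5 and Nr4a2 had sites of 220, 200 and 200 bp, at 742, 729 and 200 bp downstream. Fosl2 and Id2 had sites of 463 and 474 bp just outside the window, at 1171 and 1338 bp. Fos, the most studied gene of this response, had its nearest site 99.3 kb away, Fosb 11.9 kb, Junb 132 kb and Myc 114 kb.

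Of 30 other products, 11 had a site. The widest was at Ccn1, a matricellular protein gene, 704 bp wide and 704 bp downstream. Sgk1, a serum-induced kinase, had a site of 397 bp, Ier5 one of 385 bp and Errfi1, a feedback inhibitor of the EGF receptor, one of 372 bp. The others were Btg1 (303 bp), Ccn2 (298 bp), Trib1 (273 bp), Plk2 (248 bp), Tob1 (203 bp), Dusp1 and Mcl1 (200 bp each). The Dusp1 site also lies in the annotated Ergic1. Zfp36l2, an mRNA decay factor gene, had the widest site among all 61 genes, 1337 bp, at 1375 bp downstream, and Rnd3 one of 241 bp at 1472 bp. With the 4 genes between 1 and 3 kb, all downstream of the TSS, 25 of the 61 had a site within 3 kb, against 15.4% of all protein-coding genes and 20.6% of those with an island.

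**Figure D5:**
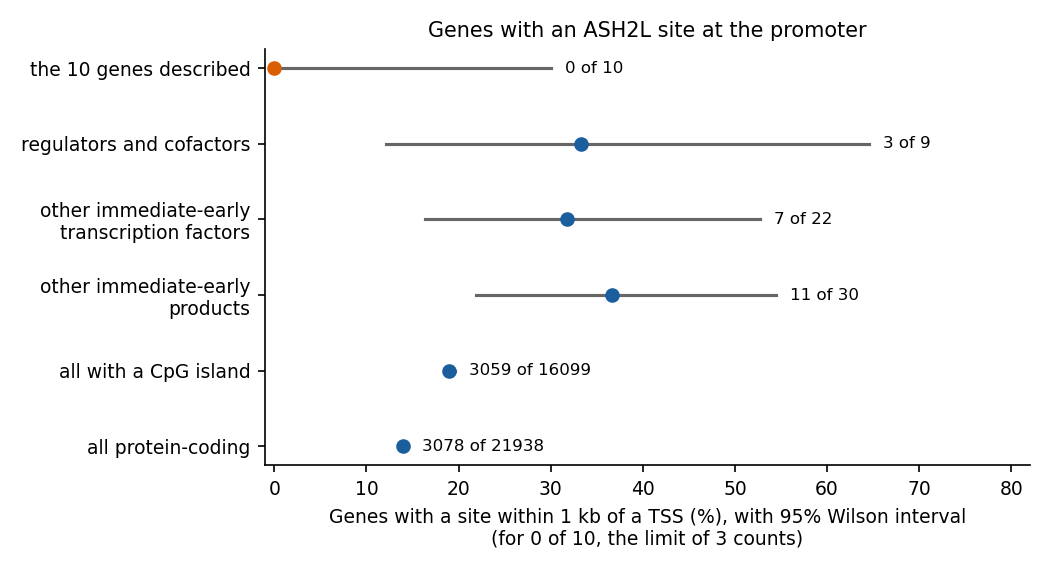
Share of genes with an ASH2L site within 1 kb of a TSS in percent, for the 10 genes described, 3 lists of other immediate-early genes and regulators, all genes with a CpG island and all protein-coding genes; points are shares, lines are 95% Wilson intervals or, for 0 of 10, the limit of 30.0%, for counting error only, and the counts stand beside them. The 10 genes are at 0 of 10, and the 3 lists are at 3 of 9, 7 of 22 and 11 of 30.

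Gene families were described around the 10 genes, none of which had a site, so that any site in a family had to lie at another gene. The backgrounds are again 14.0% of all protein-coding genes and 19.0% of those with an island, and nothing was tested. None of the 4 Egr genes had a site. Of the 3 Nr4a receptors, Nr4a2 had a site, lost under 2 of the settings named above, and Nr4a1 and Nr4a3 had none. Of the 17 Klf genes, 2 had a site, Klf6 and Klf5 (the latter lost under all 3 of these settings), and Klf4 was among the 15 without. Of the 8 Atf genes, 4 had one, Atf1, Atf2, Atf4 and Atf6, at 41 to 242 bp from the TSS, and Atf3 was among the 4 without. Of the 5 MADS box genes, Mef2a and Mef2c had a site, at 205 and 32 bp, and Srf, Mef2b and Mef2d had none. Of Ier2, Ier5 and Ier5l, which share a domain, only Ier5 had a site. These families were drawn up after the counts of the 10 genes had been seen.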

How the data were processed

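ChIP-seq of ASH2L and input was done in 8 libraries of iMEF cells. By the study's methods and the submitters' processing notes, the authors used Trim Galore for read trimming, BWA for alignment (build mm10), SAMtools for filters, Picard for merging replicates and MACS for calling narrow peaks. The deposited list holds site positions in bp over all samples combined. Thresholds and whether sites were called per library are not given in the sources used here.

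The 10 genes and the lists of related genes were chosen with earlier results of these data known. Starts in the list were read as counted from 0, and positions are printed from 1. TSSs came from GENCODE mouse release 21 on the same build (the study used a later release), and a gene counted when a site centre lay within 1 kb, 3 kb or 100 kb of any TSS. CpG islands were computed from the GRCm38.p6 sequence (windows of 200 bp, G or C over 50%, CpG ratio over 0.6). Promoter windows came from RefSeq. Of the 8 motifs searched, all were chosen after the promoters had been seen. All 10 genes are named. Of the other lists, those with a site are named with the widest first, and of nearby sites the gene with the nearest TSS. With positions only and no value per sample, no statistical test was made, and 95% Wilson intervals cover counting error only. Depth per sample was not analysed here. The distance calls were checked on 200 simulated sites placed near known TSSs, where the genes found in 3 window sizes were those of a direct search. Software was SciPy 1.17.1, pandas 2.3.3 and NumPy 2.4.6 under Python 3.11.15, and matplotlib 3.10.9 for figures. Alternative starts, windows, sites, islands and promoter windows were tried.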

Additional observations from a re-analysis of the deposited data

How the results depend on the processing

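None of the 10 genes had a site within 1 kb or within 3 kb with any of these other choices: TSSs of protein-coding transcripts, the most upstream TSS of each gene, any base of a site in the window, sites over 200 bp, merged sites and, for the first, windows of 500 bp and 2 kb. A window of 10 kb, added after the data had been seen, gave 1 gene, Ier3. The 5 genes with a site within 100 kb became 3 with a window of 50 kb (Nr4a1, Ier2 and Ier3), and also 3 (Egr1, Ier2 and Ier3) without sites within 1 kb of a TSS of another gene. The other 35 of 38 alternatives stayed within 1.5 times the reported value. The count of the 61 listed genes ranged from 14 (window of 500 bp) to 25 (windows of 2 and 3 kb, the latter added later), and the median distance from 97600 to 115834 bp. No paired analysis was possible because the list has no value per sample. For the same reason no library could be left out, no stricter peak threshold could be set, and depth sets an unknown limit on sites too weak to be listed.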
